A study of Saccharomyces cerevisiae with 12 samples.

Results

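The biotin genes measured here are BIO2, BIO3, BIO4, BIO5 and VHT1, which carry the steps of vitamin synthesis and uptake that Saccharomyces cerevisiae laboratory strains retain. They were chosen with their values on these arrays known, from the contrasts between both Σ1278b wild types, the overexpression arrays and S288c, and all 5 listed genes had a probe set, out of 5449 genes measured by 5498 probe sets. Every value of the 5 genes is therefore a description, and no test of them is given. Each of the 60 values (5 genes on 12 arrays) lay above the background level of its array, so no member was lost to a filter on dim signals.

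Biotin is the cofactor of carboxylases, enzymes that fix bicarbonate onto acetyl-CoA, pyruvate and other substrates, and most laboratory yeasts cannot make it from scratch. They take it up from the medium, or build it from intermediates of the pathway when these are supplied. Bio5 imports the precursor keto-aminopelargonic acid, Bio3 converts it to diaminopelargonic acid with S-adenosylmethionine as the amino donor, Bio4 closes the ureido ring to give dethiobiotin, and Bio2, a mitochondrial iron-sulfur enzyme, inserts the sulfur. Vht1 is the high-affinity proton symporter for biotin itself. Transcription of VHT1 and BIO5 is known to respond to low biotin through the regulator Vhr1. The genes of the earlier pathway steps, BIO1 and BIO6, had 0 entries in the S. cerevisiae gene table used for names.

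The study asked which genes respond to the transcription factors Mss11 and Flo8 and to the adhesin Flo11, which Mss11 and Flo8 activate and which coats the cell surface of adhering yeast. Transcripts were measured on 12 Affymetrix arrays in 8 groups, 6 of which had 1 array and no replicate in this series. All cultures were grown in 5 ml of synthetic dropout medium with 2% glucose at 30 °C. The labels call the arrays biological replicates.

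Of the first set, 3 Σ1278b arrays came from cells with FLO11 on a multicopy vector under the constitutive PGK1 promoter, and 3 came from a wild type with an empty vector, called the first wild type below. The second set held 1 Σ1278b array each of FLO8 overexpression, MSS11 overexpression (both on multicopy vectors), the mss11 deletion with an empty vector, and another wild type with an empty vector, called the second wild type. By their labels, all Σ1278b strains were MATα and carried ura3-52 together with his3Δ::hisG, leu2Δ::hisG and trp1Δ::hisG. The study's strain list gives MATa for the strain with these alleles. The remaining arrays were S288c (BY4742, a laboratory strain that is MATα), 1 overexpressing MSS11 from a multicopy vector and 1 wild type with an empty vector. The study lists BY4742 with deletion alleles of HIS3, LEU2, LYS2 and URA3. It also states that S288c carries a nonsense mutation in FLO8, which Σ1278b does not share. The comparisons of FLO8 overexpression, MSS11 overexpression, the mss11 deletion and the S288c wild type all share the single second wild type array, so a deviation of that array enters each of them.

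The manipulated genes followed their labels. FLO11 had a log2 signal of 14.81 to 14.88 on the FLO11 overexpression arrays against 11.95 to 12.27 on the first wild type arrays, FLO8 had 14.65 after its overexpression against 10.34 in the second wild type, and MSS11 had 12.29 after overexpression and 6.87 in the deletion against 8.22 in the second wild type. In S288c, MSS11 had 11.45 after overexpression against 8.49 in the wild type. The sets differed in their selection markers: URA3 stood at 14.32 to 14.82 on the 4 Σ1278b arrays of the second set against 8.40 to 8.71 on the 6 arrays of the first set, and LEU2 at 12.93 to 14.30 against 14.74 to 15.00, although the label of every Σ1278b strain gives leu2Δ::hisG. The study lists its multicopy FLO11 plasmid with LEU2 as the marker, and it names a plasmid with URA3 for MSS11 overexpression. The highest LEU2 value of the second set was in the mss11 deletion, which the study gives as mss11Δ::LEU2. LYS2 had 4.21 and 3.70 on the S288c arrays, below their background level, and HIS3 had 12.97 and 13.23 there against 7.74 to 8.32 on the Σ1278b arrays.

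Both S288c arrays, although labelled with a MATα strain, also carried signal of genes specific to MATa cells. The summed linear intensity of 7 a-specific genes was 3444.5 with MSS11 overexpressed and 9157.9 in the S288c wild type, against 743.6 to 1131.5 on the 10 Σ1278b arrays. The 7 genes were above background on all arrays, and none was at 0. The summed intensity of 4 genes specific to MATα cells was 36131 to 54911 over all 12 arrays. All 7 a-specific genes were at least 2-fold higher in the S288c wild type than in the second Σ1278b wild type, against 5.33% of all probe sets. In S288c with MSS11 overexpressed 6 of 7 were at least 2-fold lower than in the S288c wild type, against 0.437% of all probe sets. The part of this signal in the S288c values of the biotin genes was not tested.

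Across the 12 arrays the biotin genes covered a wide span. BIO3 ranged over 2.84 on the log2 scale (7.15-fold), BIO5 over 2.41 (5.30-fold), BIO4 over 1.79 (3.47-fold), VHT1 over 1.45 (2.74-fold) and BIO2 over 1.15 (2.22-fold). Among the 5498 probe sets these ranges lay at percentiles 97.6, 96.5, 93.6, 90.9 and 85.8. The FLO8 overexpression array was the lowest of the 12 for 4 of 5 genes, the exception being BIO5, which was lowest on the first wild type array 2. The S288c wild type was the highest for 4 of 5 genes, the exception being BIO2, which was highest in the second Σ1278b wild type.

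**Figure D1:**
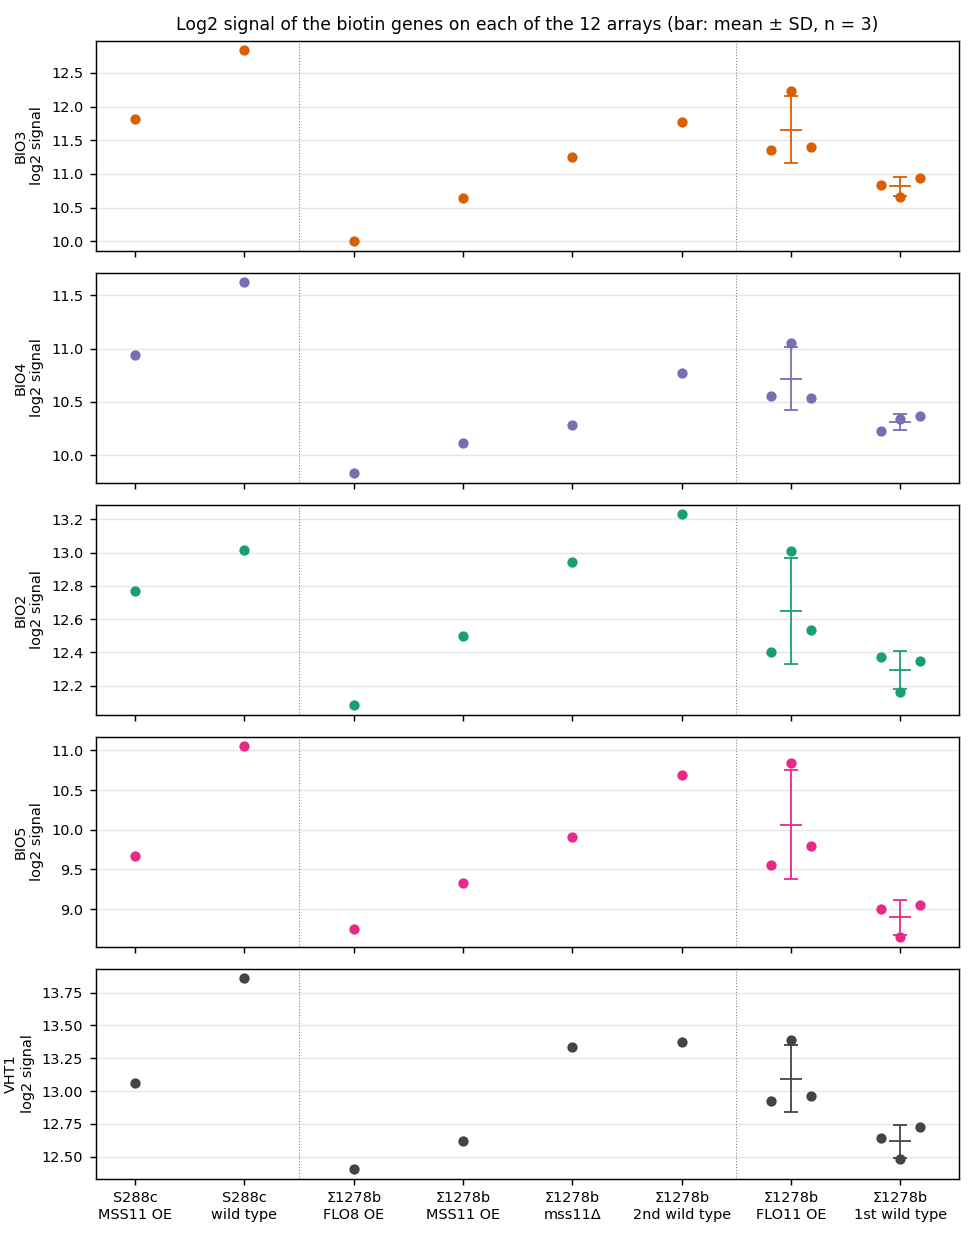
Log2 signal (y axis) of BIO3, BIO4, BIO2, BIO5 and VHT1, 1 panel per gene with its own scale, on each of the 12 arrays by group (x axis). Each point is 1 array, and bars give the mean ± SD of the groups with 3 arrays. FLO8 overexpression lies at or near the bottom of every panel, and FLO11 overexpression replicate 2 stands above the other replicates of its group in all 5.

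Among the synthesis genes, BIO3, the aminotransferase, had a log2 signal of 11.82 in S288c overexpressing MSS11 and 12.84 in the S288c wild type. In the second Σ1278b set its linear intensity was 1024 after FLO8 overexpression, the lowest of the 12 arrays, 1595 after MSS11 overexpression and 2439 in the mss11 deletion, against 3482 in the wild type, and on the log2 scale the last 3 of these are 10.64, 11.25 and 11.77. In the first set it had 11.35, 12.23 and 11.39 after FLO11 overexpression, against 10.84, 10.66 and 10.94 in the first wild type. The second wild type was thus above all 3 first wild type arrays, and both overexpression arrays of the second set were below all 3 of them.

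BIO4, the dethiobiotin synthetase, had 10.94 in S288c overexpressing MSS11 and 11.62 in the S288c wild type. It had 9.83 after FLO8 overexpression, 10.11 after MSS11 overexpression and 10.29 in the mss11 deletion, against 10.78 in the second wild type. In the first set it had 10.56, 11.06 and 10.54 after FLO11 overexpression, against 10.23, 10.34 and 10.37 in the first wild type. The mss11 deletion lay within the range of the first wild type for BIO4, which was so for none of the other 4 genes.

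BIO2, the biotin synthase, had 12.77 in S288c overexpressing MSS11 and 13.01 in the S288c wild type, the smallest separation of the 5 genes between these arrays. It had 12.08 after FLO8 overexpression, 12.50 after MSS11 overexpression and 12.95 in the mss11 deletion, against 13.23 in the second wild type. In the first set it had 12.40, 13.01 and 12.54 after FLO11 overexpression, against 12.37, 12.16 and 12.35 in the first wild type. The lowest FLO11 overexpression array, at 12.40, stood close to the highest first wild type array, at 12.37.

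For transport, BIO5, the precursor permease, had 9.68 in S288c overexpressing MSS11 and 11.05 in the S288c wild type. It had 8.74 after FLO8 overexpression, 9.33 after MSS11 overexpression and 9.91 in the mss11 deletion, against 10.70 in the second wild type. In the first set it had 9.56, 10.85 and 9.79 after FLO11 overexpression, against 9.00, 8.65 and 9.05 in the first wild type. FLO11 overexpression replicate 2 alone reached the level of the second wild type.

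VHT1, the biotin symporter, had 13.06 in S288c overexpressing MSS11 and 13.86 in the S288c wild type. It had 12.41 after FLO8 overexpression, 12.62 after MSS11 overexpression and 13.34 in the mss11 deletion, against 13.37 in the second wild type. In the first set it had 12.93, 13.39 and 12.97 after FLO11 overexpression, against 12.64, 12.48 and 12.72 in the first wild type. VHT1 was the member with the least separation between the mss11 deletion and the second wild type.

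Overexpression of FLO11, compared with the first wild type, is the 1 contrast with replicates. All 5 genes averaged higher after FLO11 overexpression, and in each of them the 3 arrays of each group did not overlap, against 12.4% of all probe sets that were higher without overlap. BIO5 averaged 10.06 ± 0.69 after FLO11 overexpression and 8.90 ± 0.22 in the first wild type (log2 signal, SD, n = 3 each), a difference of 1.16 (SE 0.31, 2.24-fold). BIO3 averaged 11.66 ± 0.50 after FLO11 overexpression and 10.81 ± 0.14 in the first wild type, a difference of 0.85 (SE 0.22, 1.80-fold). VHT1, BIO4 and BIO2 differed by 0.48 (SE 0.13), 0.41 (SE 0.14) and 0.36 (SE 0.15). The median of the 5 differences was 0.48, and that of all probe sets was -0.01. At 2-fold 1 of 5 genes was higher, against 0.6% of all probe sets. In bulk cultures, more cells transcribing a gene and more transcript per cell cannot be told apart.

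The FLO11 overexpression arrays were also where replicates of the biotin genes spread most. Replicate 2 exceeded the mean of replicates 1 and 3 by 1.17 for BIO5 (2.25-fold), 0.86 for BIO3, 0.54 for BIO2, 0.51 for BIO4 and 0.44 for VHT1. By the SD over these 3 arrays BIO5 ranked 8 and BIO3 ranked 12 of the 5498 probe sets, with BIO2 at 73, BIO4 at 102 and VHT1 at 162. Replicates of a group differed at least 2-fold in only 0 to 7 probe sets per pair. BIO5 was 1 of the 6 probe sets so separated between FLO11 overexpression replicates 1 and 2, and 1 of the 5 between replicates 2 and 3. Without replicate 2 the difference was 0.77 for BIO5, 0.56 for BIO3, 0.33 for VHT1, 0.24 for BIO4 and 0.18 for BIO2. With the second wild type added to the first, the median of the 5 differences was 0.29 and that of BIO2 alone 0.12.

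The wild types themselves differed. The second wild type was above each of the 3 first wild type arrays for all 5 genes, against 33.4% of all probe sets, and its difference from their mean was 1.80 for BIO5 (3.47-fold), 0.95 for BIO3, 0.94 for BIO2, 0.76 for VHT1 and 0.46 for BIO4. BIO5 ranked 8 from the highest difference over all probe sets. At 2-fold, 1 of 5 genes was higher, against 0.618% of all probe sets. For each of the 5 genes the difference between the wild types was larger than that between FLO11 overexpression and the first wild type, but for BIO3 and BIO4 by less than the SE of the FLO11 difference. The sets also differed in URA3 and LEU2 signal, as given above, so the selection marker and the set cannot be told apart.

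**Figure D2:**
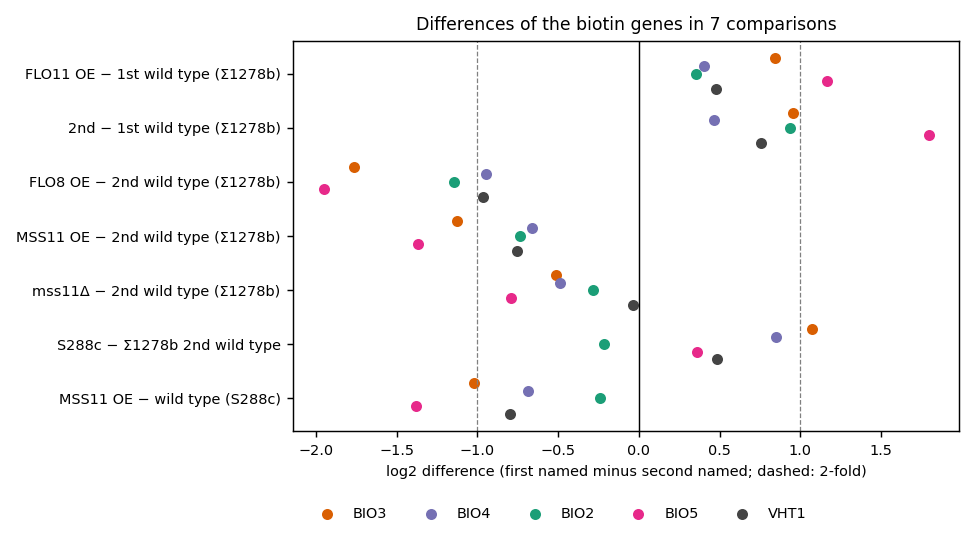
Log2 differences (x axis) of the 5 biotin genes in 7 comparisons (y axis, first-named minus second-named group), with 1 point per gene and dashed lines at 2-fold. All points are above 0 for FLO11 overexpression and for the second against the first wild type, all are below 0 for FLO8 overexpression, for MSS11 overexpression in both strains and for the mss11 deletion, and the S288c against the second Σ1278b wild type has 4 points above 0 and 1 below.

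Overexpression of FLO8 was accompanied by the lowest signal of the 12 arrays for 4 of the 5 genes, and by the second lowest for BIO5. Against the second wild type the log2 difference was -1.95 for BIO5 (3.87-fold lower), -1.77 for BIO3 (3.40-fold lower), -1.15 for BIO2, -0.97 for VHT1 and -0.94 for BIO4. From the lowest difference upward these ranked 2, 4, 16, 20 and 22 of 5498 probe sets. At 2-fold 3 of 5 genes were lower, against 0.346% of all probe sets. The median of the 5 differences was -1.15, and that of all probe sets was 0.00. Measured against the mean of the 3 first wild type arrays the differences were smaller, -0.81 for BIO3, -0.48 for BIO4, -0.21 for BIO2 and VHT1, and -0.16 for BIO5, and BIO5 then lay within the range of the first wild type.

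Overexpression of MSS11 in Σ1278b placed the 5 genes in the same direction relative to the second wild type, with differences of -1.37 for BIO5, -1.13 for BIO3, -0.75 for VHT1, -0.73 for BIO2 and -0.66 for BIO4. At 2-fold 2 of 5 genes were lower, against 0.273% of all probe sets. The direction depended on which wild type was used. Against the mean of the first wild type arrays, BIO5 was higher by 0.43 and BIO2 by 0.20, VHT1 differed by 0.00, and BIO3 and BIO4 gave -0.18 and -0.20.

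The mss11 deletion lay on the same side of the second wild type as MSS11 overexpression. Relative to the second wild type all 5 genes were again lower in the deletion, with differences of -0.79 for BIO5, -0.51 for BIO3, -0.49 for BIO4, -0.28 for BIO2 and -0.04 for VHT1. At 2-fold 0 of 5 genes were lower, against 0.236% of all probe sets. With the mean of the 4 Σ1278b wild type arrays in place of the second wild type, the median of the 5 genes in the deletion was 0.42 rather than -0.49. On all 5 genes the overexpression arrays stood below the deletion array. MSS11 overexpression minus the deletion was -0.71 for VHT1, -0.61 for BIO3, -0.58 for BIO5, -0.45 for BIO2 and -0.17 for BIO4. Among all probe sets these lay at percentiles 1.7 (VHT1) to 16.7 (BIO4). FLO8 overexpression minus the deletion was -1.25 for BIO3, -1.16 for BIO5, -0.93 for VHT1, -0.86 for BIO2 and -0.45 for BIO4, at percentiles 0.4 (BIO3) to 4.9 (BIO4). This contrast does not involve the shared wild type, but the genes were chosen with the overexpression arrays known, so it too is a description. This series held no replicate of any of these arrays, although the study states that it used independent replicate cultures of each strain. The study's list of genes that changed significantly with MSS11 overexpression in either strain, or with the deletion, names none of the 5 genes.

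In S288c, MSS11 overexpression was also accompanied by lower signals of the biotin genes than in the S288c wild type. BIO5 differed by -1.38, BIO3 by -1.02, VHT1 by -0.80, BIO4 by -0.69 and BIO2 by -0.24. At 2-fold 2 of 5 genes were lower, against 0.437% of all probe sets. This pair of arrays shares no sample with the Σ1278b comparison. The genes were chosen with both comparisons known, however, so likeness between them is a description and no support. The difference in S288c minus that in Σ1278b was -0.01 for BIO5, -0.03 for BIO4, -0.04 for VHT1, 0.11 for BIO3 and 0.49 for BIO2. With 1 array on each side, none of these differences between backgrounds was tested. The median difference of the a-specific genes between the same arrays was -1.46, and their part in the result was not tested.

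The S288c wild type exceeded the second Σ1278b wild type by 1.07 for BIO3, 0.85 for BIO4, 0.49 for VHT1 and 0.36 for BIO5, while BIO2 differed by -0.22. At 2-fold 1 of 5 genes was higher, against 5.33% of all probe sets. Against the mean of the first wild type arrays all 5 genes were higher in S288c, by 2.15 for BIO5, 2.02 for BIO3, 1.31 for BIO4, 1.24 for VHT1 and 0.72 for BIO2. The median difference of the 5 genes between the strains was 1.20 against the mean of the 4 Σ1278b wild type arrays and 0.49 against the second wild type alone. The size of the difference between the strains, and for BIO2 its direction, therefore depended on the Σ1278b array used.

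The members did not all follow each other equally closely. The root mean square difference between the profiles of a pair of genes, each centred on its own mean over the 12 arrays, was smallest for BIO2 and VHT1 (0.180) and largest for BIO2 and BIO3 (0.496). BIO4 and VHT1 were at 0.236, BIO3 and BIO4 at 0.309 and BIO3 and BIO5 at 0.325. BIO5, BIO4 and BIO3 lie next to each other in the gene table (YNR056C, YNR057C and YNR058W), while BIO2 (YGR286C) and VHT1 (YGR065C) are on another chromosome and apart from each other. The mean of the 5 centred profiles was -0.82 after FLO8 overexpression, -0.39 after MSS11 overexpression, 0.11 in the mss11 deletion and 0.54 in the second wild type. It was -0.07, 0.67 and 0.01 after FLO11 overexpression against -0.41, -0.57 and -0.34 in the first wild type, and 0.22 in S288c overexpressing MSS11 against 1.05 in the S288c wild type.

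Over the same 12 arrays, the gene nearest to this mean profile was no biotin gene. AAD10, annotated as a putative aryl-alcohol dehydrogenase, was at a root mean square difference of 0.131, nearer than any member (0.153 for VHT1 to 0.293 for BIO5), and at 0.095 it was also the nearest gene to VHT1. AAD10 had 11.44 in S288c overexpressing MSS11 and 12.11 in the S288c wild type, and 10.41 after FLO8 overexpression, 10.89 after MSS11 overexpression and 11.59 in the mss11 deletion, against 11.71 in the second wild type. It had 11.18, 11.59 and 11.12 after FLO11 overexpression, against 10.74, 10.68 and 10.92 in the first wild type. As in the biotin genes, FLO11 overexpression replicate 2 was the highest of its group and FLO8 overexpression the lowest of all 12 arrays.

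The next nearest profiles were those of GSC2, a glucan synthase subunit (0.292), PDR12, a weak-acid efflux pump (0.319), PYK2, a pyruvate kinase (0.345), PRM8 (0.352), COT1, a vacuolar metal transporter (0.354), YJR154W (0.354), MHO1 (0.356), MCT1, a mitochondrial malonyl transferase (0.359), and APE1, a vacuolar aminopeptidase (0.362). YJR154W stands beside AAD10 in the gene table, and its differences were -1.35 after FLO8 overexpression, -0.86 after MSS11 overexpression and -1.05 after MSS11 overexpression in S288c. MHO1 was the nearest gene to BIO2 (0.163), and ESBP6, a monocarboxylate permease homologue, the second nearest to BIO4 (0.241). These genes were picked by their values on the same arrays, so no test of them is given.

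**Figure D3:**
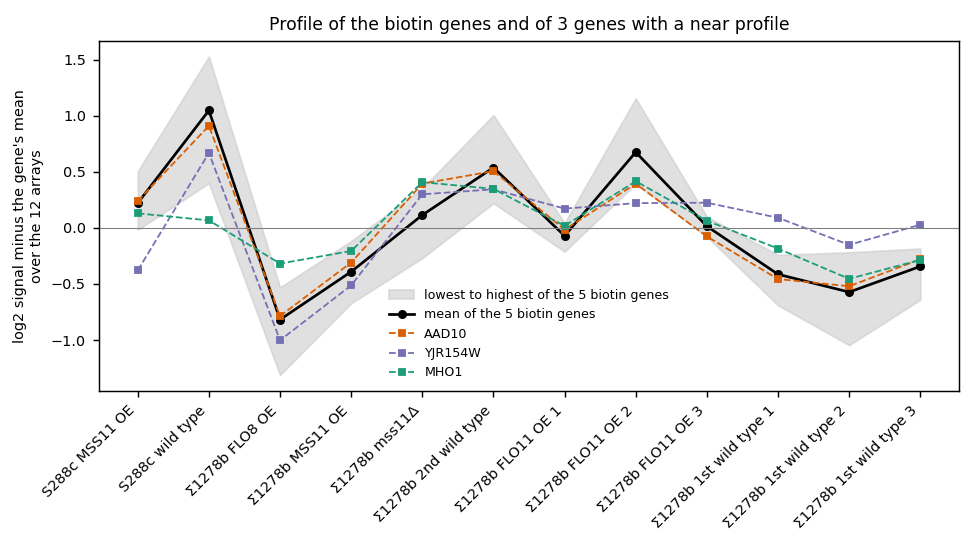
Log2 signal minus the mean of the gene over the 12 arrays (y axis) for each array (x axis). The black line is the mean of the 5 biotin genes, the grey band runs over the lowest to the highest of the 5, and dashed lines show AAD10, YJR154W and MHO1. AAD10 follows the mean most closely (root mean square difference 0.131), with the lowest point after FLO8 overexpression and the highest in the S288c wild type.

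The regulators of biotin uptake shared the direction of the members in some comparisons and not in others. VHR1, the activator of VHT1 and BIO5 in low biotin, had 11.32, 11.24 and 11.13 after FLO11 overexpression against 10.69, 10.80 and 10.92 in the first wild type, a rise of 0.43 (SE 0.08, limma adjusted p = 0.0219). Without the first wild type array 1 or 2, or without FLO11 overexpression array 2, the rise was 0.37, 0.43 and 0.43 and no longer passed the threshold. VHR1 was at 10.31 after FLO8 overexpression, 10.33 after MSS11 overexpression and 10.44 in the mss11 deletion, against 10.22 in the second wild type, all within a narrow range. In S288c it had 10.75 with MSS11 overexpressed and 11.61 in the wild type, a difference of -0.86, in the direction of the biotin genes. The S288c wild type exceeded the second Σ1278b wild type by 1.38 for VHR1, called at 2-fold, against 5.33% of all probe sets. Between the wild types of Σ1278b, VHR1 differed by -0.58, the second minus the first, opposite to the biotin genes.

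VHR2, the paralog of VHR1, differed far more between the sets than within them. It had 11.53 after FLO8 overexpression, 11.61 after MSS11 overexpression and 11.58 in the mss11 deletion, against 11.58 in the second wild type. In the first set it had 9.74, 9.95 and 9.75 after FLO11 overexpression, against 9.54, 9.42 and 9.62 in the first wild type, a difference of 0.29 that did not pass the limma threshold (adjusted p = 0.0784). The second wild type exceeded the first by 2.06 for this gene. In S288c it had 10.66 with MSS11 overexpressed and 10.29 in the wild type.

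**Figure D4:**
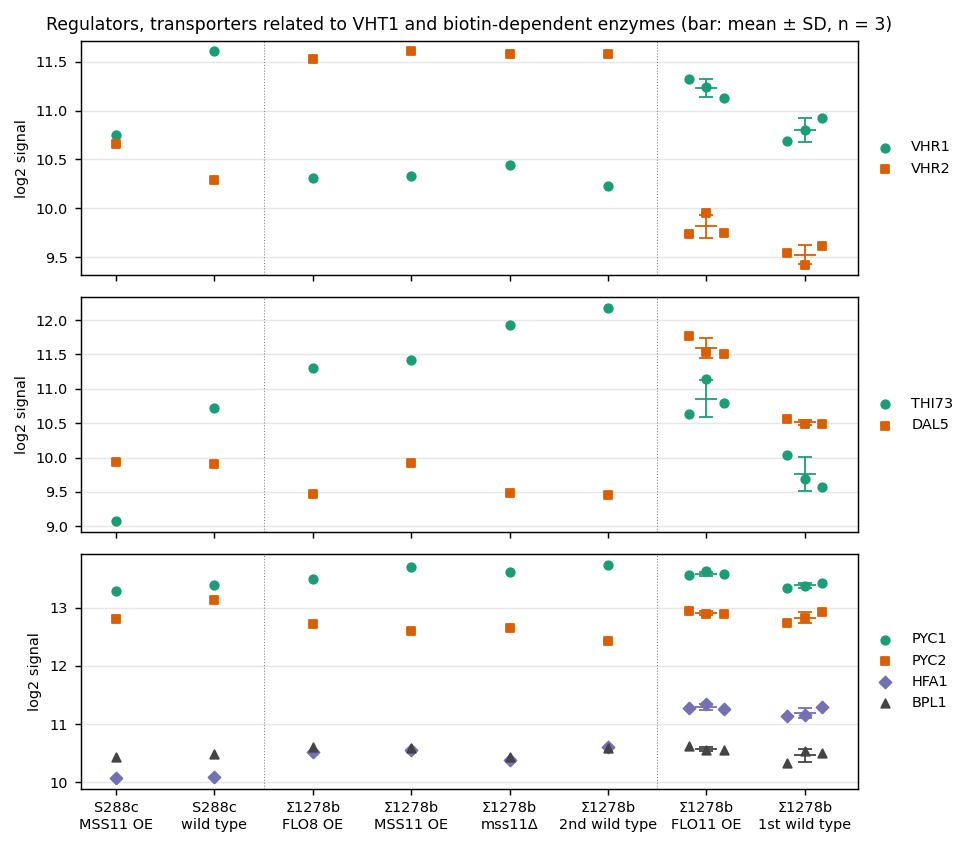
Log2 signal (y axis) by group (x axis) of the regulators VHR1 and VHR2 (top), of THI73 and DAL5, transporters related to VHT1 (middle), and of PYC1, PYC2, HFA1 and BPL1 (bottom). Points are arrays, and bars give the mean ± SD of the groups with 3 arrays. VHR2 lies at 11.53 to 11.61 on the 4 Σ1278b arrays of the second set and at 9.42 to 9.95 on the 6 of the first, and HFA1 lies higher in the first set (11.13 to 11.35) than on the other arrays (10.07 to 10.60).

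The enzymes that carry biotin, and the ligase that attaches it, were not called at 2-fold (0 of 6) in any of the 7 comparisons, although HFA1 and PYC2 differed between the strains and between the wild types. Of 6 measured genes, 1 rose after FLO11 overexpression and 0 fell at the limma threshold, against 3.8% and 2.55% of all probe sets. The riser was PYC1, a cytosolic pyruvate carboxylase, with 13.56, 13.63 and 13.59 after FLO11 overexpression against 13.35, 13.38 and 13.43 in the first wild type (difference 0.20, SE 0.05, adjusted p = 0.0440), and it no longer passed when any array was left out. ACC1, the acetyl-CoA carboxylase, was between 14.35 and 14.43 on all 12 arrays. The other differences after FLO11 overexpression were 0.12 for BPL1, the biotin-protein ligase, 0.10 for HFA1, the mitochondrial acetyl-CoA carboxylase, 0.08 for the pyruvate carboxylase PYC2 and 0.06 for ARC1, a tRNA-binding protein. HFA1 differed by -0.59 and PYC2 by -0.40 in the second against the first wild type, where the median size over all probe sets was 0.14, and in the S288c wild type against the second wild type HFA1 differed by -0.51 and PYC2 by 0.70, where it was 0.27.

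Among 6 measured transporters of the family of Vht1, 3 rose and 0 fell after FLO11 overexpression at the limma threshold, against 3.8% and 2.55% of all probe sets. DAL5, the allantoate permease, had 11.77, 11.53 and 11.50 after FLO11 overexpression against 10.56, 10.49 and 10.49 in the first wild type (difference 1.09, SE 0.08, adjusted p = 6.16e-04). YCT1, a cysteine transporter, differed by 0.88 (SE 0.06, adjusted p = 6.16e-04), and SEO1, a putative permease, gave -0.43 (adjusted p = 0.0523), with the nicotinic acid transporter TNA1 at -0.15 and the pantothenate transporter FEN2 at -0.05. THI73, a putative permease, had 10.63, 11.15 and 10.79 after FLO11 overexpression against 10.03, 9.68 and 9.56 in the first wild type (difference 1.10, SE 0.16, adjusted p = 0.0108), and without the first wild type array 2 the difference of 1.06 no longer passed.

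THI73 was the member of this family with differences nearest in direction to those of the biotin genes. It had 11.30 after FLO8 overexpression, 11.42 after MSS11 overexpression and 11.92 in the mss11 deletion, against 12.18 in the second wild type, which was 2.42 above the first. In S288c it had 9.07 with MSS11 overexpressed and 10.72 in the wild type, a difference of -1.65. Unlike 4 of the 5 biotin genes, it was lower in the S288c wild type than in the second Σ1278b wild type, with a difference of -1.45. DAL5, in contrast, differed by -1.06, the second minus the first wild type.

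The 3 permeases related to Bio5, UGA4, HNM1 and TPO5, which carry 4-aminobutyrate, choline and polyamines, had differences of -0.02 to 0.00 after FLO11 overexpression. Of these, 0 of 3 passed the limma threshold (0 at an unadjusted p of 0.05), where 3.8% of all probe sets rose and 2.55% fell. The S-adenosylmethionine synthetases SAM1 and SAM2, which make the amino donor of the Bio3 step, differed by 0.03 and 0.04, and 0 of 2 passed (0 at an unadjusted p of 0.05). In no comparison was any of these 5 genes called at 2-fold.

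Since Bio2 is an iron-sulfur enzyme, 14 genes of mitochondrial iron-sulfur cluster maturation were examined. After FLO11 overexpression 2 of 14 rose and 0 fell at the limma threshold, against 3.8% and 2.55% of all probe sets. ISU2, a scaffold protein on which clusters are built, had 12.75, 12.73 and 12.78 after FLO11 overexpression against 11.79, 11.83 and 11.82 in the first wild type (difference 0.94, SE 0.04, adjusted p = 1.46e-04). The other was its paralog ISU1 (difference 0.31, SE 0.06, adjusted p = 0.0287), which no longer passed when any array other than the first wild type array 1 was left out. ISU2 was also 1.19 higher in the second than in the first wild type, but differed by 0.02 after FLO8 overexpression and by 0.04 after MSS11 overexpression, where the biotin genes were low. Of 4 lipoate synthesis genes, whose Lip5 is a related sulfur-inserting enzyme, 0 passed after FLO11 overexpression (0 at an unadjusted p of 0.05). Of 17 iron regulon genes 0 passed there (2 at an unadjusted p of 0.05). In the S288c wild type against the second Σ1278b wild type, 4 of 17 iron regulon genes were called at 2-fold lower and 0 higher. They were HMX1 (-4.62), FRE1 (-2.63), CCC2 (-1.42) and SIT1 (-1.23). Of the 14 maturation genes, YAH1 was called higher there (1.54) and JAC1 lower (-1.15). In that comparison 473 of 5498 probe sets were called in either direction, of which 293 (5.33% of all probe sets) were higher and the rest lower.

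Of 12 neighbours of the members in the gene table, up to 2 on each side of each gene, 11 had a probe set and GID10 was not analysed here. After FLO11 overexpression IMA1, an isomaltase gene next to BIO2 with close paralogs, fell by 0.28 (SE 0.05, limma adjusted p = 0.0216). Of the 11 neighbours 1 fell and 0 rose at the limma threshold, against 2.55% and 3.8% of all probe sets. FRE4, a ferric reductase gene near BIO3, was the single neighbour called at 2-fold in any comparison, with 8.56 after MSS11 overexpression against 7.12 in the second wild type. In that comparison 67 of 5498 probe sets were called in either direction. The other neighbours were ERV29, ZUO1, MAL13, MNT4, HOL1, ESF2, COX18, SPT4 and YGR067C. HOL1, next to BIO5, differed by 0.17 after FLO8 overexpression and by -0.01 after FLO11 overexpression.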

How the data were processed

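RNA of 12 cultures was hybridised to Affymetrix yeast arrays. Per probe set, the authors deposited 1 linear intensity made by RMA, which corrects background and normalizes by quantiles. Its version is not given in the sources used here. Deposited values were converted to log2 without a pseudocount, since 0 values were at or below 0. The labels place harvest in early stationary phase, while the methods state a lower density. Of 10928 probe sets, the 5498 listed under 1 S. cerevisiae gene were analysed. A further 1746 were listed under genes outside the S. cerevisiae table and served as S. pombe probe sets, whose 95th percentile on an array was its background level (4.76 to 4.89). Of the analysed probe sets, 97.4 to 98.5% were above it, and array medians were 10.72 to 10.84. Names came from a RefSeq gene table, and neighbours from the order of start positions of its protein-coding genes on a chromosome.

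FLO11 overexpression was compared with the first wild type in R 4.3.3 with the moderated two-sided test of limma 3.58.1 (lmFit, then eBayes), and p-values were adjusted by Benjamini-Hochberg over 5498 probe sets, with a threshold of 0.05. The procedure was tested on simulated data. Other comparisons had 1 array on at least 1 side and no test, and a probe set was called at 2-fold (a log2 difference of 1 or more) with its brighter side above background. Precision is limited by how few arrays there were. Tables were handled in Python 3.11.15 with pandas 2.3.3.

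The members and gene lists were chosen with earlier results of these data known. Named were the 5 biotin genes, label checks and all measured members of lists of up to 7 genes, apart from the lipoate and mating type lists. Also named were the called members of longer lists, up to 2 neighbours on each side, and the 10 nearest profiles to the mean of the members and the 3 nearest to each member. DUR12, SOA1 and GID10 were not analysed here. Alternatives were replicate number as a block, a model of all 12 arrays, the wild types of both sets, repeated quantile normalization, median centring, 50 added before log2, a filter on dim probe sets (above background on at least 3 arrays), trend and robust options, another Σ1278b wild type and each array left out.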

Additional observations from a re-analysis of the deposited data

Results flagged for a closer look

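For 22 genes of the biotin-related lists the difference that accompanied MSS11 overexpression was set side by side in both backgrounds, and 3 went in opposite directions, each beyond the median size over all probe sets (0.15 in S288c and 0.09 in Σ1278b on the log2 scale). VHR1, the regulator of VHT1 and BIO5, differed by -0.86 in S288c and by 0.10 in Σ1278b. PYC2, a pyruvate carboxylase, differed by -0.33 in S288c and by 0.16 in Σ1278b. UGA4, a 4-aminobutyrate permease, differed by -0.19 in S288c and by 0.24 in Σ1278b. The share of all probe sets that meet this rule was not computed. The count of 3 is therefore not read as a trait of these 22 genes. Each value compares 1 array with 1 array, and the difference between the backgrounds was not tested.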

How the results depend on the processing

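Of 385 alternative values, 327 kept their direction and their side of the threshold, moved by less than the replicate spread or, for counts, stayed near the main count. Some of them could not move. The model of all 12 arrays returned the main values. Log2 differences were the same by construction under the replicate block, the trend and robust options and the filter on dim probe sets. The count of 349 probe sets past the limma threshold after FLO11 overexpression was 109 with the wild types of both sets and 96 to 318 with 1 array left out. With the replicate number as a block it was 208, and VHR1, PYC1 and ISU1 no longer passed. Same-numbered arrays did not deviate together (r across probe sets 0.03, -0.12 and -0.27), and differently numbered arrays gave r from -0.28 to 0.40. With so few arrays these values do not settle whether the numbers pair the samples. The main model used no pairing. With the wild types of both sets VHR2 turned to -0.23, and VHR1, PYC1, DAL5, THI73, ISU1 and ISU2 no longer passed. PYC1 also failed when quantile normalization was repeated within the 6 arrays. With the mean of the 4 Σ1278b wild type arrays in place of the second wild type, the median of the biotin genes was -0.60 for FLO8 overexpression (main -1.15), -0.18 for MSS11 overexpression (main -0.75), 0.42 for the mss11 deletion (main -0.49) and 1.20 for the S288c wild type (main 0.49), and 56 rather than 35 probe sets were called at 2-fold in the deletion. The cause was not tested. The comparisons of the second set rest on single arrays without replicates in this series. All values of the biotin genes were above background.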
